A study of Mus musculus with 6 samples.

Results

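Lcn2, Chil1, Serpina3n, Ly86, Matn2 and Ctla2a are 6 genes that read high in some retinas of older DBA/2J mice and not in others. They were chosen from these same array values, for their difference between ages and their variation among the older retinas, out of 18193 genes that have an array probe set annotated to them alone. All 6 were found, by 7 probe sets, and 6 of these probe sets, 1 per gene, passed the filter on low values, which 11219 genes passed. The filter asked that at least 3 of the 6 log2 values reach 4. Because the levels themselves chose the genes, their values are given below as descriptions, with no test.

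Affymetrix arrays measured messenger RNA in single whole retinas from females of DBA/2J, an inbred mouse strain whose pigment gene mutations lead to iris disease, raised intraocular pressure and loss of ganglion cells with age. Each array held 1 retina of 1 animal, from 3 mice aged 8 months with elevated pressure and 3 mice aged 3 months with normal pressure. The last pressure measured in the sampled eye was 25.3, 26.5 and 30.4 mmHg in 8-month retinas 1, 2 and 3, against 19.1, 15.3 and 18.2 mmHg in 3-month retinas 1, 2 and 3. Mice were picked by pressure, so age and pressure cannot be told apart here, and no other strain or treatment was on these arrays. Right eyes gave 8-month retinas 2 and 3, and left eyes gave the remaining 4 retinas. The retinal identity of the samples showed in all 8 measured rod markers, whose mean log2 signal lay between 11.48 and 11.56 at 8 months and between 11.61 and 11.72 at 3 months.

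Acute-phase proteins are secreted proteins whose synthesis climbs after injury or infection, when interleukin-6 family cytokines, interleukin-1 and tumour necrosis factor act through the transcription factors STAT3, C/EBP and NF-kappa-B. The liver releases most of them into plasma, and reactive astrocytes, Müller cells and phagocytes of the nervous system make several locally. Lcn2, lipocalin 2, binds bacterial siderophores and so withholds iron. Serpina3n, an inhibitor of serine proteases such as granzyme B and leukocyte elastase, is a mouse relative of human alpha-1-antichymotrypsin, an acute-phase protein. Chil1 encodes a secreted chitinase-like lectin without enzyme activity that accompanies tissue inflammation. The remaining genes are not classed as acute-phase genes: Ly86 encodes MD-1, the secreted partner of the receptor Cd180 on B cells and phagocytes, Matn2 encodes the matrix adaptor matrilin-2, and Ctla2a encodes a protein resembling the propeptide of cathepsin L, which it inhibits.

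The promoters below are shown because these genes were high in the same retinas, and they were searched for sites of the acute-phase and interferon transcription factors. They come from RefSeq, build GRCm38.p6 of the strain C57BL/6J, not DBA/2J, and run from 250 bases before to 50 bases after a gene's start, in the direction of transcription. Capitals mark motif matches. Both strands were searched for TTCNNNGAA (STAT), TTGCNNAA (C/EBP), GGGANTTTC (part of the kappa-B motif), TGANTCA (AP-1) and GAAANNGAA (part of the interferon response element), and no matches overlapped.
Lcn2 chr2:32387690-32387989, minus strand: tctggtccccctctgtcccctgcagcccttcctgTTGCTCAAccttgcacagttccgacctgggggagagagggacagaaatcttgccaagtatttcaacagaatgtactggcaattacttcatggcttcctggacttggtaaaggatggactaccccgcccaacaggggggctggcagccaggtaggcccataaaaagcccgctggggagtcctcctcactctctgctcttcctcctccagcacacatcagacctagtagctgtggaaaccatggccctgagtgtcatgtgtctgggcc
Chil1 chr1:134181906-134182205, plus strand: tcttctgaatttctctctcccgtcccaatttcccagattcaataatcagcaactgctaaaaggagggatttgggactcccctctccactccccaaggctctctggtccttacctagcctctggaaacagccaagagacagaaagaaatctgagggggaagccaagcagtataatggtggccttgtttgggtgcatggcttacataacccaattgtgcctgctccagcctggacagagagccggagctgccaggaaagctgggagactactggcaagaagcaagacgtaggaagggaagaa
Ly86 chr13:37345095-37345394, plus strand: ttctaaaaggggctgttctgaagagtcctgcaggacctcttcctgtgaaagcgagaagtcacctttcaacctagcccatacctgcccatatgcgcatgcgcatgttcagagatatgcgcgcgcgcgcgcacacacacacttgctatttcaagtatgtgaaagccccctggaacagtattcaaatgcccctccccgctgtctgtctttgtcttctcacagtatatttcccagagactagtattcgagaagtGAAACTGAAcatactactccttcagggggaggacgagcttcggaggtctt
Ctla2a chr13:60936576-60936875, minus strand: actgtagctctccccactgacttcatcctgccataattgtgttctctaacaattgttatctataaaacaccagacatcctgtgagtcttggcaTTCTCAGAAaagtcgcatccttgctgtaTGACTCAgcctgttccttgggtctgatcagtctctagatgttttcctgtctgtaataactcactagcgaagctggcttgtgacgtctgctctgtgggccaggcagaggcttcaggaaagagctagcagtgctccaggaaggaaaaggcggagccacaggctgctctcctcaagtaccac
Lcn2 held 1 C/EBP match, TTGCTCAA, 216 bases before its start, and 10.8% of all 32851 promoters held that motif. Ctla2a held a STAT match, TTCTCAGAA, 157 bases before this start and an AP-1 match, TGACTCA, 129 bases before it, motifs present in 8.3% and 7.81% of promoters. In Ly86 the interferon motif matched as GAAACTGAA from the first transcribed base, and 8.56% of promoters held that motif. Chil1, shown for comparison, and Serpina3n held none of the 5 motifs in these windows. The kappa-B part, present in 1.11% of promoters, was in none of the members' windows. No promoter of Matn2 was matched. A match is a string of letters and was not tested as a binding site.

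Lcn2 had the widest range of the 6 genes. Its log2 signal was 5.23, 8.97 and 8.19 in 8-month retinas 1, 2 and 3, against 5.03, 5.46 and 5.87 in 3-month retinas 1, 2 and 3. The first older retina thus lay among the younger ones, while retinas 2 and 3 stood at least 2.32 above every other retina. The mean was 7.46 ± 1.97 at 8 months and 5.46 ± 0.42 at 3 months (log2 ± SD, 3 retinas each), a ratio of 4.02-fold. Within the older group, retina 2 was 13.3-fold and retina 3 was 7.76-fold above retina 1. Among the 20973 probe sets past the filter the age difference of Lcn2 ranked 2.

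Chil1 had log2 signals of 7.14, 9.28 and 9.12 in 8-month retinas 1, 2 and 3, against 6.60, 7.23 and 6.96 in 3-month retinas 1, 2 and 3. The split was the same as for Lcn2, with retinas 2 and 3 of the older mice almost level with each other and at least 1.88 above the rest. Means were 8.51 ± 1.19 at 8 months and 6.93 ± 0.32 at 3 months (± SD, 3 retinas each), a ratio of 2.99-fold that ranked 3. Retina 2 was 4.43-fold and retina 3 was 3.94-fold above retina 1 of the same age.

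Serpina3n was read near the filter. Its log2 signals were 3.94, 5.22 and 5.01 in 8-month retinas 1, 2 and 3, against 3.49, 3.85 and 4.32 in 3-month retinas 1, 2 and 3. The older retinas 2 and 3 were again the highest, by at least 0.70, and retina 1 fell inside the younger range. Its mean was 4.72 ± 0.68 at 8 months and 3.88 ± 0.42 at 3 months (± SD, 3 retinas each), 1.79-fold apart. The background model that the authors used can alter differences among weak signals such as these, and its effect here was not tested.

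Ly86 read 4.60, 6.23 and 5.75 in 8-month retinas 1, 2 and 3, against 4.61, 4.74 and 4.88 in 3-month retinas 1, 2 and 3, in log2 signal. The younger retinas were close together, within 0.27, and the first older retina read just below all of them. The mean was 5.53 ± 0.83 at 8 months and 4.74 ± 0.13 at 3 months (± SD, 3 retinas each), 1.72-fold apart, with an SD 6.18 times as large in the older group.

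Matn2 differed in that the younger retinas were spread more widely than the older ones. Its brighter probe set read 5.87, 7.19 and 6.88 in 8-month retinas 1, 2 and 3, against 4.86, 6.77 and 6.24 in 3-month retinas 1, 2 and 3, in log2 signal. The third older retina exceeded the second younger one by only 0.11, and 3-month retina 1 was the lowest of all. Means were 6.65 ± 0.69 at 8 months and 5.96 ± 0.98 at 3 months (± SD, 3 retinas each), 1.61-fold apart. The dimmer probe set of Matn2, the 1 member probe set below the filter, read 3.47, 3.62 and 3.93 at 8 months, against 3.16, 3.40 and 3.69 at 3 months, in the same order of retinas. There retina 3, not retina 2, was the highest of the older ones, and the difference in means was 0.26 in place of 0.69.

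Ctla2a read 5.46, 6.98 and 6.28 in 8-month retinas 1, 2 and 3, against 5.91, 5.96 and 5.53 in 3-month retinas 1, 2 and 3, in log2 signal. Here retina 1 of the older mice was the lowest of all 6 retinas, and retina 3 stood 0.32 above the highest younger one. The mean was 6.24 ± 0.76 at 8 months and 5.80 ± 0.23 at 3 months (± SD, 3 retinas each), 1.36-fold apart. Ctla2b, a neighbouring gene of the same family, had 1 probe set of its own, below the filter, at 3.91, 4.70 and 4.19 in 8-month retinas 1, 2 and 3, against 3.92, 3.53 and 3.46 in 3-month retinas 1, 2 and 3. A probe set annotated to both genes read 5.25, 6.20 and 5.49 at 8 months, against 5.62, 5.25 and 4.89 at 3 months, where the third older retina lay below the first younger one. The share of signal that comes from each of these copies cannot be told apart with these probe sets.

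**Figure D1:**
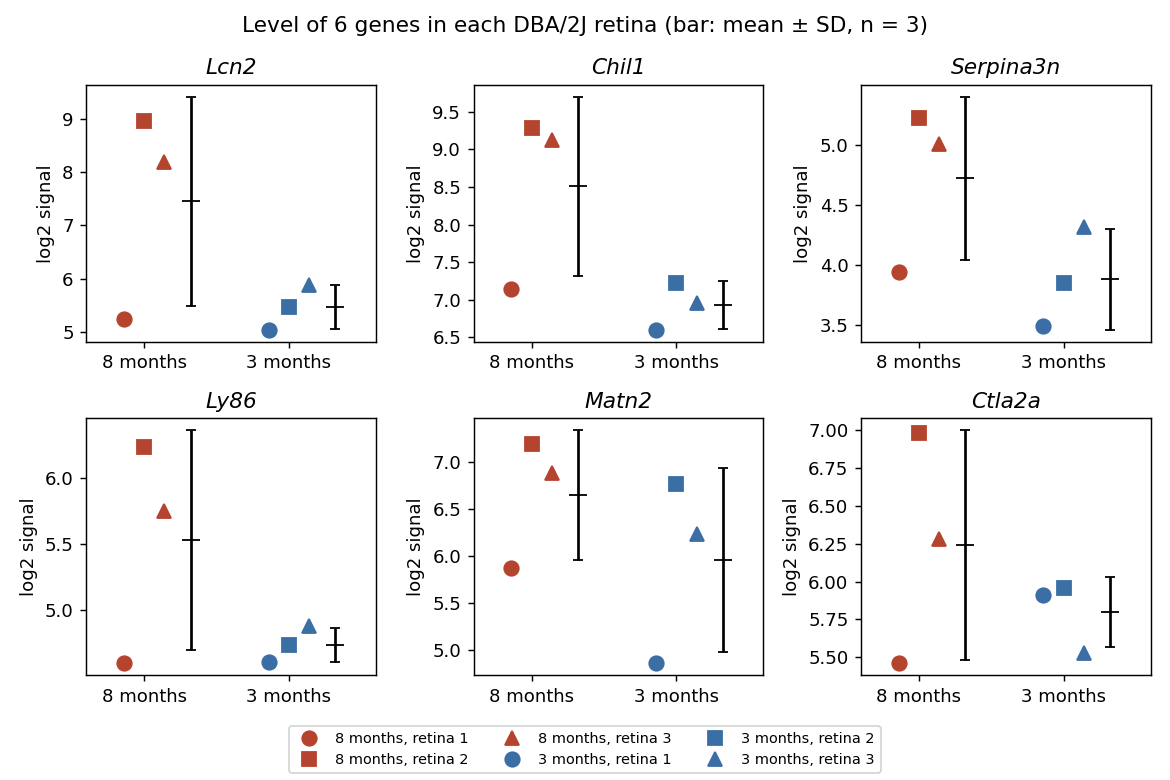
Log2 signal (vertical axes, scaled for each gene) of the 6 genes in each retina, with 8-month retinas in red at the left and 3-month retinas in blue at the right; symbols give the retina number, and black bars the mean ± SD of 3 retinas. In every panel 8-month retinas 2 and 3 are the highest points, and 8-month retina 1 lies within or below the 3-month range.

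In all 6 genes, each read by its brightest probe set, 8-month retinas 2 and 3 were the 2 highest of the 6 retinas. That order was seen in 5.8% of the 20973 probe sets past the filter. The genes were chosen for their age difference and their variation among the older retinas, and that choice favours such an order. A higher mean at 8 months, found in all 6 and in 40.6% of probe sets, is likewise part of the choice. The dimmer Matn2 probe set, below the filter, lacked the order, with 3-month retina 3 at 3.69 above 8-month retina 2 at 3.62. Retina 1 was the lowest older retina in all 6, and in 36.6% of probe sets. It lay inside the younger range in 4 genes and below it in Ly86 and Ctla2a. No gene had every older retina above every younger one, an arrangement of 6.89% of probe sets. The older mean was at least 2-fold above the younger one in 2 of the 6, against 0.0954% of probe sets. Averaged over the 6 genes and set against the 3-month mean, the log2 level was -0.09, 1.85 and 1.41 in 8-month retinas 1, 2 and 3, against -0.38, 0.21 and 0.17 in 3-month retinas 1, 2 and 3. In whole retinas, more cells of one type and more RNA per cell cannot be told apart.

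By the brightest probe set of each gene, the range among the older retinas was at least 1 on the log2 scale in all 6 genes. That was so in 0.896% of probe sets, and the median range was 1.57 for the 6 genes and 0.21 over all probe sets. Variation among the older retinas is part of what the genes were chosen for, so a wide range there is no separate result. Among the younger retinas a range of at least 1 was found for Matn2 alone of the 6, and in 1.75% of probe sets. Ranges there had a median of 0.73 for the 6 genes and 0.27 over all probe sets. Of the 188 probe sets with an older range of at least 1, 8-month retina 1 was the highest older retina in 132, the lowest in 30 and the middle one in 26. The direction of the 6 genes was thus the less common one. However, 8-month retina 1 was rich in lens transcripts, as given below, and the 188 probe sets were not sorted by tissue. A choice made after seeing the values asked in which of the 20973 probe sets 8-month retinas 2 and 3 both exceeded every other retina by 2-fold or more. There were 4, those of Lcn2 and Chil1 and those of Ifitm1 and Ifitm3, interferon-induced membrane protein genes.

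Pressure and gene level did not run in 1 order among the older eyes. The eye with the highest pressure, at 30.4 mmHg, gave retina 3. By the brightest probe set of each gene, it read below retina 2, from the eye at 26.5 mmHg, in all 6 genes. The dimmer Matn2 probe set went the other way, at 3.62 in retina 2 and 3.93 in retina 3. Retina 1 came from the eye at 25.3 mmHg, only slightly lower in pressure, and had the lowest level of the older retinas in all 6. Among the younger eyes, the one at 19.1 mmHg had the lowest level in Lcn2, Chil1, Serpina3n, Ly86 and Matn2. With 3 eyes per age and the ages apart in pressure, a relation between pressure and level could not be tested. Eye side follows the same split, since 8-month retinas 2 and 3 are the 2 right eyes, so eye side cannot be told apart from what sets those retinas apart. Among left eyes, where 1 older retina meets 3 younger ones, the log2 difference was 0.21 for Chil1, 0.06 for Serpina3n, -0.09 for Matn2, -0.14 for Ly86, -0.22 for Lcn2 and -0.34 for Ctla2a.

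**Figure D2:**
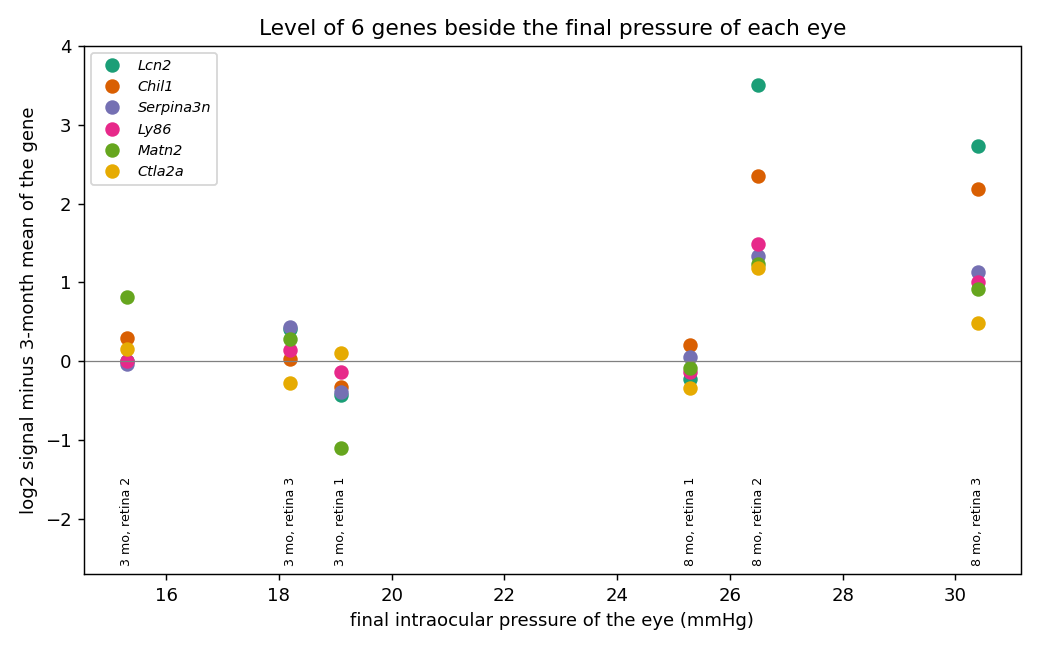
Log2 signal of each gene minus its own 3-month mean (vertical axis) against the final pressure of the eye in mmHg (horizontal axis), 1 colour per gene and 1 column of points per retina. The columns at 26.5 and 30.4 mmHg lie above 0 for every gene, whereas the 8-month eye at 25.3 mmHg has points from -0.34 to 0.21.

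The genes were then set beside their relatives and partners, in lists of genes other than the 6 chosen. Differences between ages were tested with limma over all 20973 probe sets, where 1 probe set, or 0.00477%, passed at a Benjamini-Hochberg adjusted p under 0.05 and 14.9% had an unadjusted p under 0.05, 4.63% as higher and 10.3% as lower at 8 months. That balance depends on scaling, being 1385 higher and 1410 lower after quantile normalization, against 971 and 2155 as deposited. Over 6 lists of relatives and partners, 28 genes were measured and 0 passed the limma adjusted threshold. At an unadjusted p under 0.05 there were 1 higher and 1 lower, and the median log2 difference was -0.03, against -0.041 over all probe sets.

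The receptors and relatives of Lcn2 did not share its pattern. Slc22a17, a receptor gene for lipocalin 2, read 6.89, 6.97 and 6.99 in 8-month retinas 1, 2 and 3, against 7.11, 7.07 and 6.96 in 3-month retinas 1, 2 and 3. These 6 values lay close together, with a log2 difference of -0.10 ± 0.08 (SE; limma adjusted p = 0.571). The endocytic receptor gene Lrp2 was below the filter, between 3.23 and 3.64. Among further lipocalins, Apod, the apolipoprotein D gene, differed by 0.29 and Ptgds, a prostaglandin D synthase gene that read between 11.62 and 12.64, by 0.19 (log2; limma adjusted p = 0.458 and 0.759).

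Of the chitinase family, Chid1 alone was measured, at a log2 difference of -0.03 ± 0.10 (SE; limma adjusted p = 0.918). The macrophage chitinase-like gene Chil3 and the active chitinase gene Chit1 read between 2.27 and 2.38 in every retina, below the filter. Of the serpins, Serpina3a and Serpina3i stayed between 2.25 and 3.52, also below it. Serping1, the C1 inhibitor gene, was measured at 6.17, 5.78 and 5.81 in 8-month retinas 1, 2 and 3, against 4.78, 5.57 and 6.07 in 3-month retinas 1, 2 and 3, and its highest older retina was number 1. Serpinb9, a granzyme B inhibitor gene, differed by 0.04 and Serpinf1, the gene of pigment epithelium-derived factor, by -0.22 (log2; limma adjusted p = 0.945 and 0.539).

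The receptor side of Ly86 was at low signal in these retinas. Cd180, whose product MD-1 accompanies, read between 3.07 and 3.36, Ly96, the gene of the related protein MD-2, between 2.44 and 2.85, and the endotoxin receptor gene Tlr4 between 3.36 and 3.49. These 3 genes did not reach 4 in any retina. Downstream, the signalling genes Irak1, Tirap and Traf6 were measured, with log2 differences of -0.08, -0.05 and -0.27 (limma adjusted p = 0.76, 0.862 and 0.362).

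The other matrilin genes Matn1, Matn3 and Matn4 read between 2.27 and 2.79. In the wider matrix list 8 genes were measured and the median log2 difference was -0.02. Itgb1, the beta-1 integrin gene, differed by -0.45 ± 0.18 and the proteoglycan gene Vcan by 0.39 ± 0.35 (SE; limma adjusted p = 0.318 and 0.61), though a further Itgb1 probe set differed by 0.01. Ctsl, the cathepsin L gene, read 9.76, 8.74 and 8.65 in 8-month retinas 1, 2 and 3, against 9.05, 8.73 and 9.94 in 3-month retinas 1, 2 and 3. It was highest in 3-month retina 3 and 8-month retina 1, the retinas rich in lens transcripts. Ctss, a protease gene of phagocytes, had the smallest p of these lists, with a log2 difference of 0.65 ± 0.11 (SE; limma adjusted p = 0.177), and no older retina overlapped with a younger one. Ctsc, a further cathepsin gene, read 6.37, 6.96 and 6.48 at 8 months, against 6.28, 6.33 and 6.29 at 3 months (limma adjusted p = 0.409). Its highest retinas were 8-month retinas 2 and 3, as in the 6 genes.

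The classical plasma acute-phase genes were mostly at background. Of 27 named genes of that list, 21 were below the filter, among them Saa1, Orm1, Hp and Hpx, the genes of serum amyloid A, orosomucoid, haptoglobin and hemopexin, which read between 2.24 and 2.94. Of the 6 measured, 3 had an unadjusted p under 0.05 and 0 passed the limma adjusted threshold. Cp, the ferroxidase ceruloplasmin, had 7 probe sets past the filter. The brightest read 8.64, 9.66 and 9.43 in 8-month retinas 1, 2 and 3, against 8.18, 8.52 and 8.75 in 3-month retinas 1, 2 and 3. That is the same order of retinas as Lcn2 at 8 months (limma adjusted p = 0.292). Differences of the 7 ran from 0.02 to 0.84. Probe sets at 8.47, 8.60 and 8.13 and at 7.21, 7.34 and 7.17 at 8 months were lowest in retina 3, and the rest of the 7 in retina 1. Saa2 and A2m, the alpha-2-macroglobulin gene, differed by 0.47 ± 0.18 and 0.42 ± 0.17 (log2, SE; limma adjusted p = 0.311 and 0.318). In those genes 8-month retina 1 was not set apart, at 4.49 against 4.49 and 4.57 for Saa2 and at 5.18 against 5.54 and 5.15 for A2m. Saa2 was read near the filter by 1 probe set of a less specific type, at 3.85, 4.49 and 3.81 at 3 months.

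Among cytokine, receptor and transcription factor genes of the acute-phase response, 18 were measured, 15 were higher at 8 months and 3 had an unadjusted p under 0.05, while 0 passed the limma adjusted threshold. Their median log2 difference was 0.10. Of the 18, 4 had 8-month retinas 2 and 3 as the 2 highest retinas, an order seen in 5.8% of all probe sets. Osmr, the oncostatin M receptor gene, read 4.12, 4.57 and 4.44 in 8-month retinas 1, 2 and 3, against 3.95, 3.85 and 4.01 in 3-month retinas 1, 2 and 3. Its ages did not overlap, and retina 1 was the lowest older one (limma adjusted p = 0.255). Lifr, the leukaemia inhibitory factor receptor gene, read 10.38, 10.24 and 10.05 at 8 months, against 9.61, 10.10 and 9.73 at 3 months. It was highest in 8-month retina 1 (limma adjusted p = 0.295). Socs3, a feedback inhibitor of STAT3 signalling, read 5.24, 5.09 and 5.68 at 8 months, against 4.46, 5.14 and 4.50 at 3 months in the same order. In this probe set, the brighter of 2 past the filter, retina 2, the highest for the 6 genes, was the lowest older one (limma adjusted p = 0.285). The log2 difference was 0.64 here and 0.48 in the other Socs3 probe set, whose order of retinas is not given here. Stat3 itself differed by 0.11 ± 0.13 (log2, SE; limma adjusted p = 0.698). Its brightest probe set read 5.52, 5.93 and 5.78 at 8 months, against 5.58, 5.78 and 5.54 at 3 months, lowest in 8-month retina 1. Il6, the interleukin-6 gene, and Il1b, the interleukin-1 beta gene, were below the filter at 2.24 to 2.33 and 3.50 to 3.88.

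In the list of transcripts raised in mouse reactive astrocytes after both ischaemia and endotoxin, without the members, all 6 measured genes were higher at 8 months and 4 had an unadjusted p under 0.05. The median log2 difference was 0.57, and 0 passed the limma adjusted threshold. Cp and Osmr of this list were also counted in the acute-phase lists above. With each gene counted once, the acute-phase and reactive astrocyte lists held 37 measured genes. Of these, 8 were higher and 0 lower at an unadjusted limma p under 0.05, against 4.63% and 10.3% of all probe sets. Gfap, the intermediate filament of reactive glia, read 4.87, 5.83 and 5.75 in 8-month retinas 1, 2 and 3, against 4.25, 4.72 and 4.27 in 3-month retinas 1, 2 and 3 (limma adjusted p = 0.223). In this probe set, the brighter of 2 past the filter, the ages did not overlap and the log2 difference was 1.07. The other Gfap probe set read 4.64, 4.98 and 5.04 at 8 months, against 4.63, 4.08 and 4.72 at 3 months in the same order, where the ages overlapped and the difference was 0.41. In both probe sets retina 1 was the lowest older one. S1pr3, a sphingosine-1-phosphate receptor gene, read 8.26, 7.82 and 7.97 at 8 months, against 7.09, 7.37 and 7.49 at 3 months in the same order, and was highest in retina 1 (limma adjusted p = 0.207). Vim, the vimentin gene, read 11.51, 10.90 and 10.93 at 8 months, against 10.69, 10.74 and 11.75 at 3 months, and Cd44, a hyaluronan receptor gene, read 7.21, 7.20 and 6.72 at 8 months, against 6.85, 6.70 and 6.71 at 3 months. By their brightest probe sets the 6 measured genes thus split evenly. Gfap, Cp and Osmr were lowest and S1pr3, Vim and Cd44 highest in the older retina that was low for the 6 members. Cd44 was almost level in 8-month retinas 1 and 2. Vim was highest in 3-month retina 3 and 8-month retina 1, the retinas rich in lens transcripts. Steap4, a metalloreductase gene, and Timp1, a metalloproteinase inhibitor gene, were below the filter, Steap4 at 3.32, 4.30 and 3.69 at 8 months, against 3.01 to 3.16 at 3 months, and Timp1 at 3.17 to 3.41 in all. Lists mainly raised after endotoxin and mainly after ischaemia had 0 genes at an unadjusted p under 0.05 among 5 and 4 measured, with medians of 0.07 and 0.11, and Emp1, an epithelial membrane protein gene, was highest in 8-month retina 1 at 5.84.

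Marker lists of cell types that a retina sample can hold were read beside the members. For microglia and macrophages, the mean log2 signal of 6 measured markers was 6.00, 6.00 and 5.93 in 8-month retinas 1, 2 and 3, against 5.47, 5.38 and 5.51 in 3-month retinas 1, 2 and 3. All 6 were higher at 8 months, 4 of them at an unadjusted p under 0.05 and 0 at the limma adjusted threshold. Ctss, 1 of these 4, was also counted above among the cathepsins. The other 9 of the list were below the filter, among them P2ry12, Tmem119, Cx3cr1 and Aif1. The 3 older retinas were nearly level in the mean, although the 6 genes were low in the first of them. That mean covers markers that went both ways among the older retinas. C1qb (7.65, 8.37 and 8.14) and Tyrobp (4.65, 4.85 and 4.73) were lowest in retina 1, as the 6 genes were. Lyz2 (5.05, 4.62 and 4.45), Fcgr3 (4.46, 4.34 and 4.16) and Csf1r (5.28, 4.63 and 5.24) were highest there, and Ctss lay between. The part of microglia and macrophages in the levels of the 6 genes was not tested. Of 10 neutrophil markers, 8 were below the filter with no value above 3.32, including S100a8, Ngp, Camp, Ltf and Mpo, and the measured S100a9 read 4.44, 4.83 and 4.46 at 8 months, against 4.37, 4.46 and 4.37 at 3 months. The other measured one, Mmp9, read 5.72, 6.00 and 6.19 at 8 months, against 6.02, 5.92 and 6.01 at 3 months, and was lowest in 8-month retina 1. Lcn2 is also a granule protein of neutrophils, and the part of these cells in its level was not tested. Müller glia and astrocyte markers, 14 genes with Gfap among them, had means between 8.67 and 8.71 at 8 months and between 8.55 and 8.68 at 3 months.

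Lens transcripts, from tissue outside the retina, moved with the split of the older retinas. The mean of 10 measured lens markers was 9.36, 4.79 and 5.14 in 8-month retinas 1, 2 and 3, against 6.41, 5.17 and 10.34 in 3-month retinas 1, 2 and 3. The older retina low for the 6 genes was therefore rich in lens transcripts, and so was 3-month retina 3, in which the 6 genes averaged 0.17 above the 3-month mean. Without both of these retinas the log2 age difference was 3.33 for Lcn2, 2.28 for Chil1 and 1.44 for Serpina3n. It was 1.31 for Ly86, 1.22 for Matn2 and 0.70 for Ctla2a. Leaving out 8-month retina 1, the low older retina, raises the older mean of the 6 genes whatever its lens content. With that retina alone left out, the differences were 3.12, 2.27, 1.23, 1.24, 1.08 and 0.83 in the same order of genes. Pigment epithelium and choroid markers averaged 6.27, 6.07 and 4.79 in 8-month retinas 1, 2 and 3, against 4.42, 5.89 and 6.72 in 3-month retinas 1, 2 and 3, and were low in 3-month retina 1, where Matn2 was lowest. RNA quality, read as the 3' minus 5' log2 signal of the Gapdh control, was 0.81, 0.76 and 0.77 at 8 months, against 0.71, 0.75 and 0.73 at 3 months, highest in 8-month retina 1. The same measure for the actin control was 1.84, 1.71 and 1.82 at 8 months, against 1.62, 1.87 and 1.79 at 3 months, highest in 3-month retina 2. Markers of iris, ciliary body and ocular surface, 4 measured genes, averaged 6.45, 5.24 and 5.35 in 8-month retinas 1, 2 and 3, against 5.20, 5.21 and 6.00 in 3-month retinas 1, 2 and 3, high in the same 2 retinas as the lens markers. Among them Aldh3a1, a corneal crystallin gene, read 8.03, 3.90 and 4.03 at 8 months, against 3.89, 3.95 and 6.81 at 3 months. The part of lens, iris, ciliary body, ocular surface and pigment epithelium material and of RNA quality in the levels of the 6 genes was not tested.

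**Figure D3:**
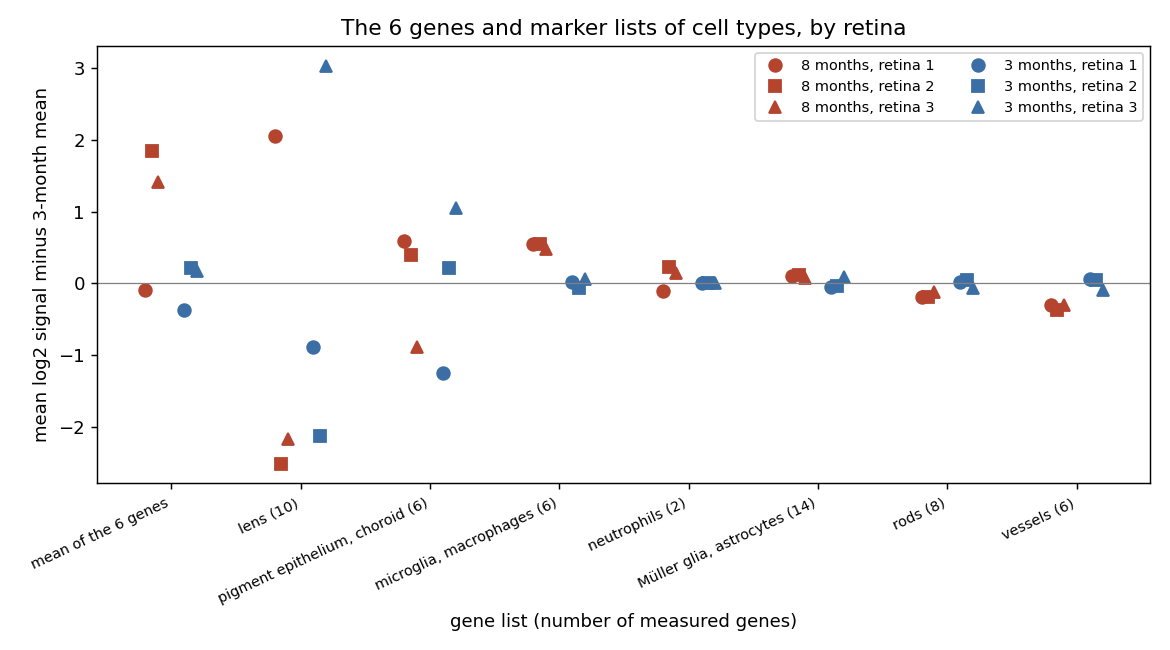
Mean log2 signal of the 6 genes and of 7 marker lists in each retina, minus the 3-month mean (vertical axis), with 8-month retinas in red left of 3-month retinas in blue and the number of measured genes in brackets. The 6 genes separate 8-month retinas 2 and 3 from retina 1, lens markers are high in 8-month retina 1 and 3-month retina 3, and the mean of the microglial markers is nearly level in the 3 older retinas.

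Genes with a pattern like that of Lcn2 were found by Pearson correlation with its log2 signal over the 6 retinas, among 380 measured genes with a range of at least 1. The 6 points share their scaling and lie in 2 clusters, 2 high retinas and 4 low ones, so r is a measure of likeness only. Of the 10 most alike, 4 were members, namely Ly86 (r = 0.996), Chil1 (r = 0.976), Serpina3n (r = 0.967) and Ctla2a (r = 0.862), while Matn2 ranked 15 (r = 0.754). The likeness of these members follows at least in part from how they were chosen. Between members, r was lowest for Matn2 with Ctla2a, at 0.595.

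The other 6 genes most like Lcn2 were Ifitm1, Ifitm3, Cp, Gfap, Cd53 and C1qb. Ifitm1 read 4.84, 6.88 and 6.28 in 8-month retinas 1, 2 and 3, against 4.77, 4.48 and 5.10 in 3-month retinas 1, 2 and 3 (r = 0.979). Ifitm3 read 6.90, 8.48 and 8.06 at 8 months, against 6.21, 6.71 and 6.83 at 3 months in the same order (r = 0.976). In both, 8-month retina 1 lay close to the younger range, as in the 6 genes. Cd53, a tetraspanin gene of leukocytes, read 6.02, 7.09 and 6.37 at 8 months, against 5.90, 5.67 and 5.73 at 3 months (r = 0.889), and C1qb, a chain of complement C1q, read 7.65, 8.37 and 8.14 at 8 months, against 7.06, 6.99 and 6.98 at 3 months (r = 0.873). For Cd53 and for this C1qb probe set all older retinas stood above all younger ones. Of the other C1qb probe sets past the filter, 1 kept the ages apart, with a log2 difference of 0.77, and in 1 they overlapped, with a difference of 0.10. Cp was like Lcn2 at r = 0.973 and Gfap at r = 0.907, but further Cp probe sets had r as low as 0.317 among those past the filter.

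**Figure D4:**
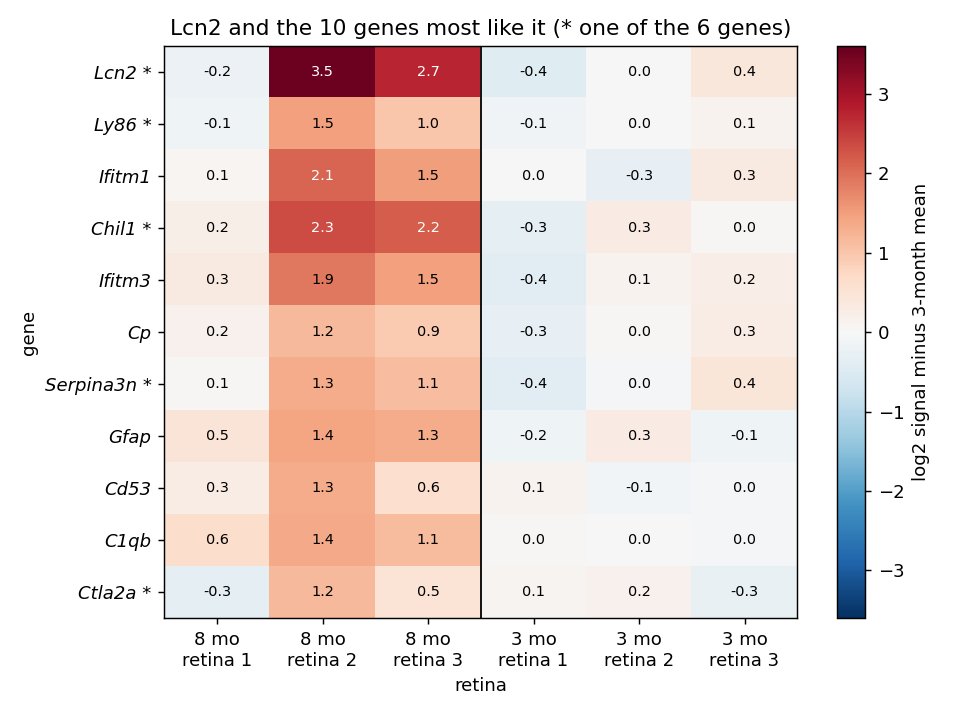
Log2 signal minus the 3-month mean, as colour and number, for Lcn2 and the 10 genes most like it (rows, in order of likeness) in each retina (columns, 8 months left of 3 months); asterisks mark members. The columns of 8-month retinas 2 and 3 are positive in every row, and 8-month retina 1 is near 0 for most members and at 0.5 and 0.6 for Gfap and C1qb.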

How the data were processed

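Per the labels' protocols, whole retinas were rinsed, total RNA was extracted and 20 ng per retina was amplified and biotin-labelled for the array. The authors deposited log2 values per probe set, which the submitters' processing notes credit to GCRMA 1.1.0 and R 1.9.0, and these were used here as deposited. GCRMA estimates background from probe sequence and normalizes between arrays, and many of the dimmest probe sets read almost alike in every retina. Its options and detection calls are not given in the sources used here. Probe sets were named from the platform annotation, where 34945 of them have 1 gene, 932 several and 9160 no gene listed. Of those with 1 gene, 34741 matched the GRCm38.p6 gene table by gene identifier, with 0 symbols changed. After 64 controls were left out, 20973 probe sets (46.6%) passed the filter, and each gene was read by its brightest one. Every array had between 46.1% and 46.6% of probe sets at or above 4.

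The age comparison used limma 3.58.1 (lmFit, eBayes; R 4.3.3), two-sided, with Benjamini-Hochberg adjustment over all probe sets past the filter and a threshold of 0.05; the fit was tested on simulated data. Precision is limited by how few arrays there are. Replicates are separate mice, since the labels number the animals. The members and lists were chosen with earlier results of these data known. Named genes are the members, their receptors and closest relatives, up to 4 genes of largest difference per list with a fixed set of reactive glial and acute-phase genes, and the 10 genes most like Lcn2 by Pearson correlation. Other list genes named as examples (Lrp2, Serpina3a, Serpina3i, Saa1, Orm1, Hp, Hpx, Il6, Il1b, Steap4 and single cell type markers) were picked after their values were seen. Alternatives changed the scaling, filter, probe sets, arrays and covariates.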

Additional observations from a re-analysis of the deposited data

How the results depend on the processing

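The count of probe sets past the adjusted limma threshold, 1 as deposited, was 2 after quantile normalization, 2 after cyclic loess and 2 with the filter raised to 6. It was 0 with no filter, with eye side as a covariate, with the replicate block, without both lens-rich retinas and in left eyes only, and between 0 and 0 when each replicate was left out in turn. It remained 1 after median centring, with array weights and with the less specific probe sets left out. The causes were not tested. Retinas with the same replicate number do not pair by label, and their deviations correlated at -0.141, 0.064 and -0.283, so the replicate block is given for completeness. Each replicate number holds 1 retina of each age, so the block could not change the age differences of the 6 genes. Their log2 differences kept their sign in all scalings tried. With eye side as a covariate or in left eyes only, which compare the 1 older left retina with the younger ones, the sign turned for Lcn2 (-0.22), Ly86 (-0.14), Matn2 (-0.09) and Ctla2a (-0.34), with 0.21 for Chil1 and 0.06 for Serpina3n. Leaving out each replicate in turn gave 1.26 to 3.12 for Lcn2, 1.20 to 2.27 for Chil1, 0.59 to 1.23 for Serpina3n, 0.43 to 1.24 for Ly86, 0.14 to 1.1 for Matn2 and 0.07 to 0.83 for Ctla2a. The highest of each range came without 8-month retina 1 except for Matn2, where it came without 3-month retina 2, and the lowest without 8-month retina 2 except for Matn2, where it came without 3-month retina 1. Of the 10 genes most like Lcn2, 10 were shared after each of the 3 scalings, 8 with no filter, 9 with the mean of all probe sets of a gene, 9 with the mean profile of the members, 7 without the less specific probe sets, and 5 each by Spearman correlation and with the filter at 6, which Lcn2 itself does not pass. With no filter, Ccl12, a chemokine gene, joined the 10, at 2.81, 4.23 and 4.0 in 8-month retinas 1, 2 and 3, against 2.69, 3.05 and 3.05 in 3-month retinas 1, 2 and 3.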
